A study of Mus musculus with 219 samples.

Results

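Levels of 10 genes of prohormone processing and of the granin family were followed in left prefrontal cortex of mice, across 4 genotypes at the Snord116 locus, 2 light cycles, 2 kinds of housing and 8 times of day. The members are the convertases Pcsk1 and Pcsk2, their partners Pcsk1n and Scg5, the trimming and amidating enzymes Cpe and Pam, and the granins Chga, Chgb, Scg2 and Vgf. They were taken by name, 10 of the 55487 gene identifiers of the count tables, and all 10 passed the filter on low counts in both tables. The mice collected at ZT6 by their labels (126 libraries in 32 groups) had 1 of 4 genotypes. In a light cycle ZT6 is 6 h after lights on. WT/WT controls had an intact locus and no transgene (Snord116+/+Ctg-/-), and HET/WT mice were heterozygous for the Snord116 deletion alone (Snord116+/-Ctg-/-). WT/TG mice bore Ctg, the labels' name for the transgene, on the intact locus (Snord116+/+Ctg+/-), while HET/TG mice combined deletion with transgene (Snord116+/-Ctg+/-). The labels give neither the strain, nor the transgene's promoter, nor the parent of origin of the deletion. The mice entered light-controlled incubators at about 8 weeks of age, at 22 °C, for 7 days of acclimation and then a cycle of 12 h light and 12 h dark (12:12) or 11 h light and 11 h dark (11:11). The calorimetry set went to indirect calorimetry chambers (CLAMS) after 22 days and was collected in constant darkness (D:D), whereas the running wheel set received wheels after 15 days, kept them for 7 days more and was collected in its light cycle. For the calorimetry set ZT6 is therefore a labelled time and not a time since lights on. Each group of set, sex, light cycle and genotype had 4 mice, with 3 libraries in the WT/TG males of the calorimetry 11:11 and the running wheel 12:12 groups. A separate atlas of 92 wild-type mice of about 12 weeks in home cages under 12:12 covered ZT0 to ZT21, with 6 mice per sex and time and 5 at ZT18 and ZT21.

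Many peptide hormones and neuropeptides are made as longer precursors. In the trans-Golgi network and in dense-core vesicles the convertases cut a precursor at paired basic residues, a carboxypeptidase then removes those residues from the cut end, and an amidating enzyme finishes many of the products. Granins are acidic proteins that load these vesicles and are themselves cut into peptides. Prader-Willi syndrome arises from loss of paternal expression of a region that includes SNORD116, and lower amounts of the convertase encoded by PCSK1, with impaired hormone processing, have been proposed as part of it. In cortex many of these genes are expressed by neurons that release peptides and neurotrophins, though not by them alone. Several of the granins are known to respond to neuronal activity and to cyclic AMP.

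Cpe was the most abundant of the 10 per unit of length. Levels between genes are compared here as RPKM, the reads per kilobase of exon after scaling to library size, and all other levels are CPM, read counts scaled to a common library size. Cpe, which trims the basic residues left by the convertases (ENSMUSG00000037852, minus strand, chromosome 8, 64592542 to 64693054, mm10), had a median of 540 RPKM at ZT6 and 494 in the atlas, rank 9 of 14919 and 11 of 14333 protein-coding genes. Pcsk1n, which encodes an inhibitor of the Pcsk1 product (ENSMUSG00000039278, plus strand, chromosome X, 7919822 to 7924410), came next at ZT6 with 112 RPKM, and was at 133 in the atlas.

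A middle group lay within a narrow range at ZT6. Scg5, the chaperone of the Pcsk2 product (ENSMUSG00000023236, minus strand, chromosome 2, 113776362 to 113829121), had 80.6 RPKM. Chgb, a granin of large dense-core vesicles (ENSMUSG00000027350, plus strand, chromosome 2, 132781278 to 132795079), had 71.0, and 127.2 in the atlas, which is a separate table. Vgf, a granin-like precursor induced by neurotrophins (ENSMUSG00000037428, plus strand, chromosome 5, 137026392 to 137033351), had 64.2 RPKM. Over the ZT6 libraries the ranges of these genes overlapped, Chgb running from 34.1 to 157 RPKM and Vgf from 25.2 to 98.3, so the order of neighbours in this list was not separated by the spread. Pcsk2, the convertase of later maturation steps (ENSMUSG00000027419, plus strand, chromosome 2, 143546156 to 143816285), had 62.1 RPKM and Scg2, the precursor of secretoneurin (ENSMUSG00000050711, minus strand, chromosome 1, 79434669 to 79440120), had 54.1.

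The lowest were Chga, Pam and Pcsk1. Chga, the founding granin (ENSMUSG00000021194, plus strand, chromosome 12, 102554969 to 102565028), had a median of 34.96 RPKM at ZT6. Pam, the amidating enzyme (ENSMUSG00000026335, minus strand, chromosome 1, 97795114 to 98095646), had 19.6. Pcsk1, the convertase of early processing (ENSMUSG00000021587, plus strand, chromosome 13, 75089826 to 75134861), had 11.8, rank 3358, and never exceeded 19.9 in any of the 126 libraries. The strand setting of the counting is not given in the sources used here, so reads may be shared where genes overlap, which applies to Pcsk1n with Eras, to Pcsk2 with Pcsk2os1 and Pcsk2os2, and to Pam with genes such as Gm37140.

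The stretches of promoter shown here carry the cyclic AMP response element TGACGTCA, or its first letters TGACG, which bind the CREB family of activity-dependent factors. They are taken from RefSeq (GRCm38.p6, the same build as mm10), read 5′ to 3′ on the gene's strand, with the motif in capitals and positions counted from the first base of RefSeq's start site. A window of 250 bases before to 50 after the start was held for 8 of the 10 genes, without Cpe and Vgf. The full element was found on either strand in Pcsk1 (-78 to -71, in the stretch chr13:75089768-75089797), Chgb (-72 to -65, chr2:132781559-132781588) and Scg2 (-68 to -61, chr1:79440076-79440105). Chga carried TGACG at -44 to -40 (chr12:102554886-102554915).
Pcsk1: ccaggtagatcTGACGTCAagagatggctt
Chgb: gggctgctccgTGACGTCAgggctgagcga
Scg2: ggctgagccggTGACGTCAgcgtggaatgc
Chga: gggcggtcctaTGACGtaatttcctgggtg
That is 3 of 8 genes with TGACGTCA, against 586 of 32544 RefSeq promoter windows of the same length (1.8%). TGACG, which every full element contains, was in 6 of 8 (Pcsk1, Pcsk2, Scg5, Chga, Chgb and Scg2), against 20.9% of all windows. The clock E-box CACGTG was in 0 of 8 windows, against 7.17% of all. These matches describe letters in a window and not bound sites.

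Libraries held about 12737700 to 29856500 counts at ZT6 and 12995500 to 18420300 in the atlas. The share of protein-coding reads at ZT6 ran from 40.01% to 93.3%, with the lowest in running wheel female 11:11 WT/TG replicate 1 and the next in calorimetry male 11:11 HET/TG replicate 4 (64.5%). A second property, called the length slope, is the change in a gene's log2 CPM relative to its own mean per log2 unit of exon length, so that a negative slope means fewer reads on long genes. Its medians at ZT6 were -0.144 for males and 0.011 for females of the calorimetry set, and 0.028 for males and 0.101 for females of the running wheel set, so it moved with set and sex. Snhg14, the Snord116 host transcript, was lower in HET/WT (median 33.2 CPM, range 20.8 to 167) than in WT/WT (188, 116 to 281), and its highest HET/WT value belonged to running wheel female 11:11 replicate 3, which went against its label. Of 8 hypothalamic markers 5 were too low to test at ZT6 and 7 in the atlas. Excitatory cortical markers summed to medians of 1870 to 2086 CPM over the sets and sexes.

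None of the 10 genes passed the test for a genotype difference. Pcsk1, the member most discussed in Prader-Willi syndrome, ran from 40.4 to 95.6 CPM in WT/WT (median 64.3, n = 32), from 39.8 to 97.3 in HET/WT (63.0, n = 32), from 42.5 to 111 in WT/TG (71.6, n = 30) and from 40.4 to 93.4 in HET/TG (67.0, n = 32). The 4 ranges overlapped almost completely. In HET/WT against WT/WT its log2 difference was -0.01 ± 0.06 (SE), with a 95% interval of -0.13 to 0.11, or from -8.59% to 7.63%.

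The same held for its sister convertase and the partners. Pcsk2 had medians of 488 CPM in WT/WT (269 to 619), 488 in HET/WT (265 to 637), 488 in WT/TG (358 to 622) and 499 in HET/TG (254 to 658), and its HET/WT difference was -0.03 (-0.11 to 0.04). Pcsk1n had medians of 240, 249, 249 and 232 CPM in the same order, with libraries from 125 to 541, and a HET/WT difference of -0.03 (-0.13 to 0.08). Scg5 had medians of 126.9, 124, 129 and 124 CPM and a difference of -0.03 (-0.09 to 0.04). In each of these genes the genotypes overlapped over most of their range.

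Cpe, Pam and the granins also gave small values, with all 10 HET/WT differences between -0.03 and 0.07. For Cpe the HET/WT difference was -0.01 (95% interval -0.05 to 0.04), the narrowest of the 10. Among the granins the largest was that of Scg2, whose medians were 133 CPM in WT/WT (70.9 to 190) and 137 in HET/WT (74.4 to 183), with a difference of 0.07 ± 0.04 (-0.3% to 10.9%, edgeR's quasi-likelihood test with Benjamini-Hochberg adjustment, adjusted p = 0.78). Without the library that went against its label the Scg2 difference was 0.08 (adjusted p = 0.732).

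In counts, 0 of 10 passed the test in HET/WT against WT/WT, where 0.0425% of all 18841 genes did, and 0 had an unadjusted p under 0.05 in edgeR. DESeq2 and limma-voom also called 0. In WT/TG against WT/WT (0.0159% of all genes) edgeR called 0 with 1 at an unadjusted p under 0.05, namely Chgb at 0.14 (0.02 to 0.26, adjusted p = 1, and 0.00519 with no expression filter). In HET/TG against WT/WT (0.0478%) it called 0 with 1 at that level, Scg2 at 0.10 (0.02 to 0.18, adjusted p = 0.742). These 3 comparisons share the WT/WT mice and are given side by side. HET/TG against HET/WT (0.0106%) gave 0 of 10, with 0 at an unadjusted p under 0.05 in edgeR and 0 calls in DESeq2 and limma-voom. Over the 10 genes the HET/WT intervals lay between -0.13 and 0.15 on the log2 scale.

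**Figure D1:**
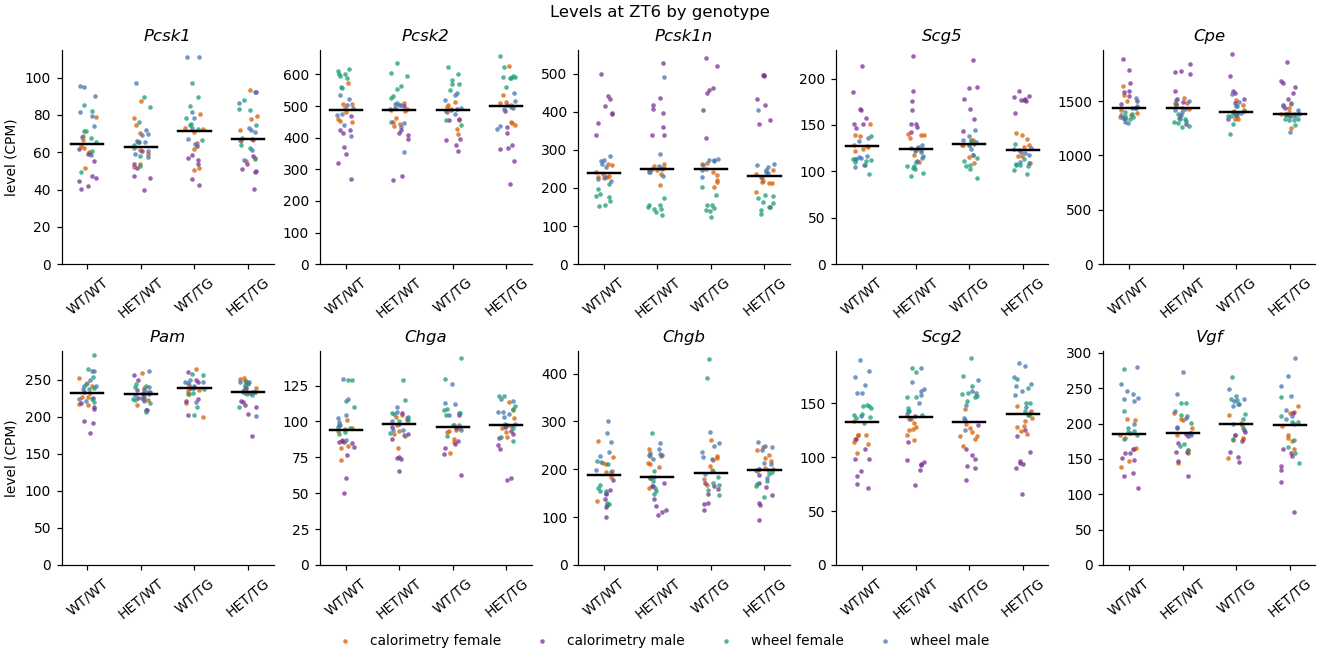
CPM of each gene in every ZT6 library by genotype (32, 32, 30 and 32 libraries); points are libraries coloured by set and sex, bars are medians over the genotype. The bars of WT/WT and HET/WT lie close, for example at 64.3 and 63.0 CPM for Pcsk1, while the colours separate, as in Pcsk1n.

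The deletion's effect on these genes also did not differ detectably by light cycle, sex or set. For each of the 3 interactions edgeR called 0 of 10 members and 0% of all genes, and DESeq2 and limma-voom called 0 members in each. At an unadjusted p under 0.05 there were 1 member by light cycle (Cpe, 0.09), 1 by sex (Pam, 0.10) and 2 by set (Pam at 0.15 and Vgf at 0.26, both adjusted p = 1). HET/WT and WT/WT mice were also compared within each of the 8 combinations of housing, sex and light, 4 mice against 4. The share of all genes called was 0.0212% for calorimetry females on either cycle, for wheel females on 12:12 and for wheel males on 11:11, 0.0159% for wheel females on 11:11 and 0.0372% for wheel males on 12:12. For calorimetry males it was 0.133% on 11:11 and 0.451% on 12:12. In edgeR 0 members were called in any of the 8, with 0 to 3 at an unadjusted p under 0.05; DESeq2 and limma-voom were not run on them.

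By adjusted p in edgeR, calorimetry males on 12:12 came closest to a genotype difference among these combinations. The lowest adjusted p of a member there was 0.208, and 3 members had an unadjusted p under 0.05. The 10 members had a median difference of 0.15 there, beside -0.01 over all genes. The smallest unadjusted p in edgeR, 0.0072, was that of Pcsk1n in running wheel males on 12:12. The HET/WT mice had 290, 258, 492 and 253 CPM and the WT/WT mice 275, 218, 229 and 255. The HET/WT library of replicate 3 stood far above all others, replicate 1 lay just above the WT/WT range and the other two lay inside it. The difference was 0.40 ± 0.15 (adjusted p = 0.67), and 0.12 without replicate 3 of each group (adjusted p = 1). Leaving out replicate 4 instead gave 0.53 (adjusted p = 0.0476), the only leave-out in which a member was called in a single combination.

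The other genes of the pathway gave no calls either, in a comparison that called 0.0425% of all genes. In HET/WT against WT/WT, 0 of 20 other processing enzymes, 0 of 24 dense-core vesicle genes, 0 of the 23 neuropeptide precursors tested and 0 of 12 regulators, among them Nhlh2 and Creb1, passed the test. Their median log2 differences were 0.01, -0.01, 0.06 and -0.02. Of the 30 precursors listed, 7 (Gal, Oxt, Hcrt, Agrp, Rln1, Npff and Ucn3) were too low to test.

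**Figure D2:**
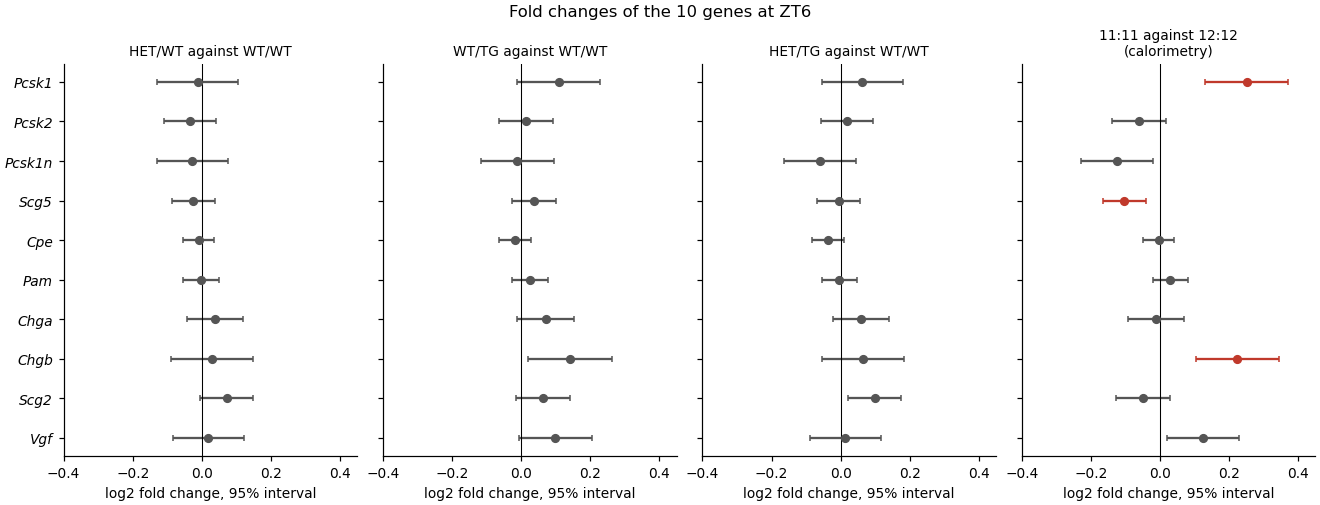
Log2 fold changes of the 10 genes at ZT6 with 95% intervals for 3 genotypes against WT/WT and, in the last panel, for 11:11 against 12:12 in the calorimetry set; red marks an adjusted p under 0.05. Genotype differences run from -0.06 to 0.14, and only the light cycle panel holds red points, Pcsk1 (0.25), Chgb (0.22) and Scg5 (-0.10).

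A few members differed between the light cycles. The calorimetry mice had been on these cycles but were collected in constant darkness. In that set the earlier cycle and the internal phase at collection cannot be told apart. On the 11:11 cycle, over both sets, Chgb rose by 0.19 ± 0.04 (adjusted p = 0.0012) and Pcsk1n fell by 0.11 (±0.04, adjusted p = 0.0352). These were 2 of 10, where 12.6% of all genes passed. The Pcsk1n call did not hold when any set of same-numbered replicates was left out (-0.14 to -0.07, adjusted p from 0.055 to 0.178), while Chgb kept an adjusted p of 0.0225 or less under all 12 alternatives.

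In the calorimetry set Pcsk1 was higher on 11:11. In females it ran from 59.8 to 93.4 CPM on 11:11 (median 73.7, n = 16) and from 50.3 to 66.4 on 12:12 (60.2, n = 16). In males it ran from 40.4 to 92.4 (58.0, n = 15) and from 39.8 to 61.7 (51.2, n = 16). Only 2 of the 16 females on 11:11, both WT/WT, lay under 66.4, whereas the males overlapped over most of their range. The rise over both sexes was 0.25 ± 0.06 (9.56% to 29.3%, adjusted p = 0.0011).

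Chgb showed a similar size of change there. In calorimetry females it ran from 211 to 261 CPM on 11:11 (median 227) and from 133 to 246 on 12:12 (197), and all but 1 of the 12:12 females were below the lowest 11:11 value. In males it ran from 104 to 201 (162) and from 93.5 to 172 (130), with wide overlap. The rise was 0.22 ± 0.06 (16.8%, adjusted p = 0.00421). Scg5 fell by 0.10 (±0.03, adjusted p = 0.0126), from a median of 131 to 126 CPM in females and from 177 to 163 in males, with overlap in both, and was not called without replicate 4 (-0.068, adjusted p = 0.188). These were 3 of 10 members called in edgeR, where 19.6% of all genes were. Pcsk1n was called in addition by DESeq2 and limma-voom (-0.14 in both, adjusted p = 0.041 and 0.0424), and Vgf without replicate 1 (0.14, adjusted p = 0.0474) or the 5 libraries lowest in protein-coding share (0.13, adjusted p = 0.033). With no expression filter both were called (adjusted p = 0.00118 for Pcsk1n and 0.00124 for Vgf).

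Vgf was called with Pcsk1 and Chgb in calorimetry females. Its female levels were 164 to 225 CPM on 11:11 (median 205) and 139 to 197 on 12:12 (170), and its male levels 74.8 to 215 (160) and 108 to 194 (156). The female values were shifted upward with some overlap and the male medians lay close. In calorimetry females Pcsk1 (0.34), Chgb (0.26) and Vgf (0.25) were called, 3 of 10 beside 12.3% of all genes. In calorimetry males Pcsk2 (-0.19) and Scg5 (-0.13) were, 2 of 10 beside 13.5%. The interaction of light cycle with sex called Pcsk2 (-0.19, adjusted p = 0.0229) and Chga (-0.19, adjusted p = 0.033), 2 of 10 beside 5.54% of all genes, in edgeR. Vgf was not called there (-0.21, adjusted p = 0.0735), but was with DESeq2 (-0.22, adjusted p = 0.018), RLE scaling (adjusted p = 0.0461) and no expression filter (adjusted p = 0.000631), and without replicate 1 (-0.26, adjusted p = 0.0293) or the 5 libraries lowest in protein-coding share (-0.20, adjusted p = 0.0304), so its call depended on the processing. Chgb was called there with no expression filter alone (-0.20, adjusted p = 0.0005), and Cpe without those 5 libraries alone (0.11, adjusted p = 0.00836). Neither Pcsk2 nor Chga was called without replicate 1, 2 or 4 (-0.19 to -0.15, adjusted p from 0.105 to 0.219), nor Chga without replicate 3 (adjusted p = 0.0806). Of the 5 calls within a sex, only that of Pcsk1 in females held with each replicate number left out (0.31 to 0.36, adjusted p up to 0.0444).

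In the running wheel set the light cycle gave no calls in edgeR, 0 of 10 beside 0.069% of all genes, with 3 members at an unadjusted p under 0.05 (Pcsk2 0.08, Chga 0.11 and Chgb 0.15) and 0 calls by DESeq2 and limma-voom. Pcsk1 medians there were 70.2 and 73.0 CPM in females on 11:11 and 12:12, and 70.6 and 74.1 in males. The difference of the light cycle effect between the sets was called for Pcsk1, at 0.28 ± 0.08 (adjusted p = 0.0301), 1 of 10 beside 5.32% of all genes. It was not called without replicate 2, 3 or 4 (0.22 to 0.31, adjusted p up to 0.272), or with the length slope as a covariate (0.16, adjusted p = 0.322). Pcsk2 was called in addition with no expression filter (-0.14, adjusted p = 0.039), with the length slope (-0.20, adjusted p = 0.0282) and without the 5 libraries lowest in protein-coding share (-0.16, adjusted p = 0.0218).

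Chgb had 2 high libraries among running wheel females on 11:11. On 11:11 the WT/TG females had 431, 391, 167 and 172 CPM, and the other 12 females lay between 127.6 and 275. The first of these is the library with 40.01% protein-coding reads. The contrast was 0.33 in edgeR (adjusted p = 0.0555, 0 of 10 called beside 0.276% of all genes). It was 0.19 without replicate 1 (adjusted p = 0.642) and 0.30 without replicate 2 (adjusted p = 0.582). Without replicate 3 or 4 it was called (0.40 and 0.39, adjusted p = 0.0381 and 0.0366). Chga had a contrast of 0.22 with the same adjusted p of 0.0555, and was called only without replicate 4 (0.27, adjusted p = 0.0333). Running wheel males gave 0 of 10 and 0% of all genes, with 0 members at an unadjusted p under 0.05 in edgeR.

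**Figure D3:**
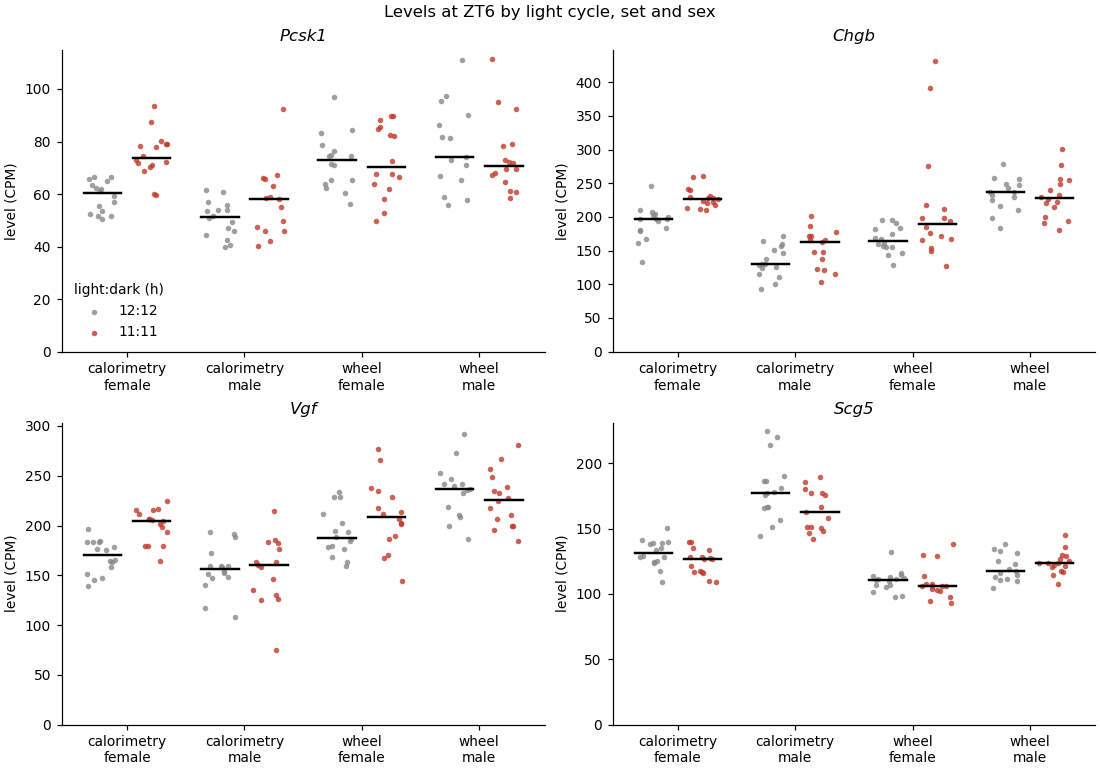
CPM of Pcsk1, Chgb, Vgf and Scg5 in each ZT6 library by set and sex, 12:12 in grey and 11:11 in red, bars at the medians (15 or 16 libraries each). In calorimetry females the 11:11 points of Pcsk1 centre on 73.7 CPM against 60.2, while its wheel medians lie close. In Chgb 2 wheel females on 11:11 reach 431 and 391 CPM.

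Other library properties moved with the light cycle in the calorimetry set, where 19.6% of all genes were called. Immediate early genes, which neuronal activity induces, rose in 14 of 20 cases (Egr1 by 0.58, Arc by 0.62, Nr4a3 by 0.52), and their sum had a median of 1977 CPM in females on 11:11 (933 to 2687) against 1424 on 12:12 (1098 to 1691), and 1653 (869 to 2625) against 1284 (1004 to 1643) in males. Of 5 blood markers 3 fell, with summed medians of 78.1 CPM (44.3 to 93.6) against 103 (68.3 to 168) in females and 150 (110 to 281) against 220 (168 to 376) in males, and all 5 passed the filter on low counts. The length slope was 0.031 against -0.005 in females and -0.113 against -0.146 in males. With the slope as a covariate Pcsk1 was 0.12 (adjusted p = 0.254), Chgb 0.18 (adjusted p = 0.0861) and Scg5 -0.06 (adjusted p = 0.318), whereas Chgb over both sets was 0.16 (adjusted p = 0.0221). The part of activity genes and blood in these results was not tested.

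Among the pathway's other genes a minority differed between the light cycles in calorimetry, beside 19.6% of all genes called. Of 20 other processing enzymes 3 rose and 4 fell, with the membrane carboxypeptidase Cpm up by 0.37 and the signal peptidase subunits Sec11c and Spcs1 at -0.21 and -0.17. Of 24 dense-core vesicle genes 4 rose and 1 fell, the first including Scg3 (0.14), which sorts granins, Ccdc186 (0.18) and Vps13a (0.20). Of 23 neuropeptide precursors 3 fell, Pomc (-0.59), Pmch (-1.19) and Cartpt (-0.35). Pomc and Pmch also belong to the hypothalamic markers, of which 2 of the 3 tested fell, and Pmch had 607 reads in all over the 126 libraries. The summed hypothalamic markers had medians of 0.581 CPM (0.41 to 1.13) on 11:11 and 0.925 (0.557 to 4.02) on 12:12 in calorimetry females, and of 1.54 (0.997 to 4.58) and 2.56 (0.572 to 4.76) in males. Their part in these results was not tested. Of 12 regulators 5 rose, among them Crebbp (0.15), Creb1 (0.09) and the neurotrophin receptor gene Ntrk2 (0.08). Over all genes the median difference was -0.01.

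The members differed between the calorimetry and running wheel sets, with the partners and Cpe higher in calorimetry and the convertases and granins lower. Pcsk1n rose by 0.60 ± 0.04, Scg5 by 0.36 ± 0.02 and Cpe by 0.14 ± 0.02 in calorimetry. Scg2 fell by 0.50 (±0.03), Vgf by 0.34, Pcsk1 by 0.32, Pcsk2 by 0.28, Chga by 0.27, Chgb by 0.27 and Pam by 0.05. That was 10 of 10 called, where 62.2% of all genes were called. The Pam call was lost without replicate 2 (-0.045, adjusted p = 0.0735) or 3 (-0.032, adjusted p = 0.18) and with no expression filter (adjusted p = 0.272). The sets differed in housing and in lighting at collection, which cannot be told apart.

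The largest of these differences were visible library by library. Scg2 ran from 66.1 to 138 CPM in calorimetry males (median 95.1, n = 31) and from 125 to 190 in running wheel males (161, n = 31). In females it ran from 104 to 147 (125, n = 32) and from 136 to 192 (149, n = 32). The ranges of the sets overlapped from 125 to 138 CPM in males. In females they overlapped from 136 to 147, which reaches close to the running wheel median. Pcsk1n ran from 151 to 541 CPM in calorimetry males (417) and from 218 to 492 in running wheel males (256.2), and from 188 to 264 in calorimetry females (237) against 125 to 210 in running wheel females (156). The lone low calorimetry male, 151 CPM, was HET/TG replicate 4 on 11:11, the library with 64.5% protein-coding reads, which also had the lowest Vgf of the 126 libraries (74.8 CPM).

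The set differences were present on each light cycle, with 9 of 10 called on 11:11 (49% of all genes) and 9 on 12:12 (53.1%), all but Pam. The length slope differed between the sets, with medians of -0.045 in calorimetry and 0.058 in the running wheel set. With it as a covariate 4 of 10 remained called, Scg2 (-0.49), Chga (-0.35), Vgf (-0.32) and Scg5 (0.19), while Pcsk1n was -0.03 (adjusted p = 0.892) and Pcsk1 0.18 (adjusted p = 0.304). Blood markers were higher in calorimetry in 4 of 5 cases (median 1.06), oligodendrocyte markers in 5 of 6 (0.21) and hypothalamic markers in 3 of the 3 tested (1.53), while striatal markers were lower in 8 of 8 (-0.72) and choroid plexus markers in 5 of 6 (-1.16). Of 10 excitatory markers 0 were higher and 5 lower (-0.07), and of 8 inhibitory markers 1 was higher and 4 lower (-0.07). Of 20 immediate early genes 4 were higher and 10 lower (-0.14). These counts stand beside 62.2% of all genes called. The summed blood markers had medians of 85.6 CPM (44.3 to 168) in females and 199 (110 to 376) in males of the calorimetry set, against 63.7 (39.2 to 100) and 83.2 (63.3 to 174) with wheels. The part of these marker lists in the results was not tested, and in bulk tissue fewer cells of a type cannot be told apart from less RNA per cell.

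**Figure D4:**
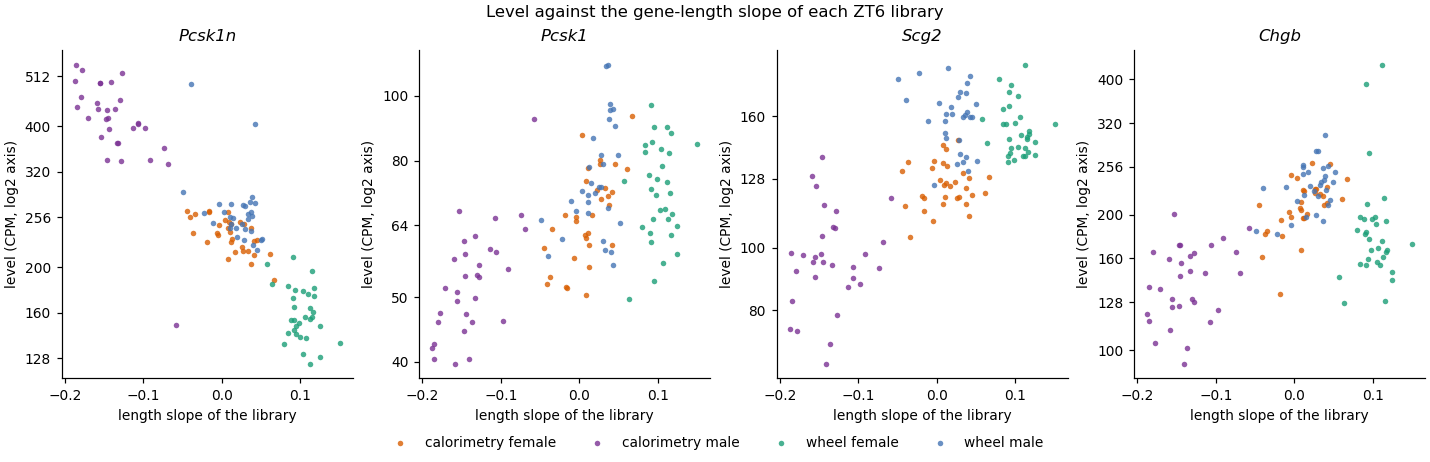
CPM (log2 axis) of Pcsk1n, Pcsk1, Scg2 and Chgb in each ZT6 library against that library's length slope (log2 CPM per log2 exon length), coloured by set and sex. Calorimetry males occupy the negative end (median -0.144) with high Pcsk1n, and running wheel females the positive end (0.101) with low Pcsk1n.

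In calorimetry against running wheel, where 62.2% of all genes were called, 4 of 20 other processing enzymes rose and 11 fell. Of 24 dense-core vesicle genes 5 rose and 11 fell. Of 23 neuropeptide precursors 10 rose and 7 fell, and of 12 regulators 1 rose and 5 fell. The medians of these lists were -0.15, -0.03, 0.02 and -0.10, beside -0.02 over all genes.

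Males and females differed in 8 of 10 members at ZT6, where 58.1% of all genes differed. Pcsk1n, which lies on the X chromosome, was higher in males by 0.77 ± 0.04 (70.6%), Scg5 by 0.30 and Cpe by 0.12. Pcsk2 was lower by 0.28, Scg2 by 0.16, and Pcsk1, Chgb and Chga by 0.11 to 0.12. Chgb was not called without replicate 1 (adjusted p = 0.081), replicate 2 (adjusted p = 0.0959) or the 5 libraries lowest in protein-coding share (-0.084, adjusted p = 0.0598), and Pcsk1 was not without replicate 1 (-0.094, adjusted p = 0.108). In calorimetry the length slope ran from -0.045 to 0.067 in females and from -0.187 to -0.058 in males. With wheels it ran from 0.058 to 0.151 and from -0.049 to 0.052. The sexes did not overlap in slope within a set, so sex differences with the slope as a covariate are extrapolations. With this covariate 1 was called, Pcsk1, and its sign was reversed (0.34, adjusted p = 0.0436). Pcsk1n was then 0.20 (adjusted p = 0.152).

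The sex differences depended on the set. Chgb ran from 93.5 to 201 CPM in calorimetry males (median 146) and from 133 to 261 in calorimetry females (211), but from 181 to 301 in running wheel males (232) and from 127.6 to 431 in running wheel females (173). Males thus had the lower values in calorimetry and the higher ones with wheels, with overlap in both. The sex difference of Chgb was -0.55 ± 0.06 in calorimetry and 0.32 ± 0.06 with wheels, and the difference between the sets was -0.86 ± 0.09 (adjusted p = 3.25e-15).

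Other granins and Pcsk1 shifted likewise. The interaction of sex with set was -0.43 for Vgf, -0.43 for Scg2, -0.38 for Pcsk1 and -0.17 for Chga, with Pam at -0.085, Scg5 at 0.27 and Cpe at 0.11. That was 8 of 10 called, where 51.8% of all genes were. Without replicate 3, Pam, Cpe and Chga were not called (adjusted p from 0.063 to 0.0884), nor was Chga without replicate 1 (-0.10, adjusted p = 0.136). Pam was also not called without replicate 1 or 2 (-0.078 and -0.054, adjusted p = 0.132 and 0.334), with no expression filter (adjusted p = 0.145) or without the 5 libraries lowest in protein-coding share (-0.044, adjusted p = 0.26). With the length slope as a covariate Pcsk1 (-0.12, adjusted p = 0.382), Pam (-0.014, adjusted p = 0.849) and Cpe (0.084, adjusted p = 0.105) were not called, and Pcsk1n was, at -0.26 (adjusted p = 0.00812). Pcsk2 and Pcsk1n were not called (-0.06, -0.16 to 0.05, and 0.09, -0.06 to 0.24). Both had the same direction of sex difference in each set, Pcsk2 at -0.30 and -0.25 and Pcsk1n at 0.81 and 0.73. Within calorimetry 10 of 10 differed by sex (63.1% of all genes), with Pam lost without replicate 1 or 3 (adjusted p = 0.0609 and 0.13), with no expression filter (adjusted p = 0.0946) or without the 5 low libraries (adjusted p = 0.0796), and with wheels 6 of 10 (33.8%). With the length slope as a covariate these counts were 1 and 3.

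Cell-type markers also moved with sex within the sets, where 63.1% of all genes were called in calorimetry and 33.8% with wheels. Of 20 immediate early genes 1 was higher and 8 lower in males in calorimetry, and 14 were higher and 0 lower with wheels. Their sums had medians of 1554 CPM (933 to 2687) for females and 1380 (869 to 2625) for males in calorimetry, and of 1620 (923 to 2080) and 2091 (1294 to 2777) with wheels. Striatal markers were lower in calorimetry males in 7 of 8 cases and differed in 0 of 8 with wheels, and their sums were 316 (112 to 948) and 151 (113 to 697) in calorimetry, against 354 (118 to 1171) and 418 (123 to 1072). Oligodendrocyte markers were higher in calorimetry males in 4 of 6 cases, with sums of 3686 (2915 to 4987) and 5347 (3800 to 7546), against 3487 (2727 to 4438) and 3532 (2151 to 3959) with wheels. Blood markers were higher in males in 5 of 5 cases in calorimetry (median 0.82) and in 3 of 5 with wheels (0.59). In calorimetry 4 of 6 astrocyte markers and 3 of the 3 hypothalamic markers tested (median 1.12) were also higher in males, and 4 of 6 choroid plexus markers were lower (-1.43). Of 10 excitatory markers 2 were higher and 6 lower in males in calorimetry (-0.19), and 3 were higher and 3 lower with wheels. Of 8 inhibitory markers 1 was higher and 4 lower in males in calorimetry (-0.10), and 4 were higher and 0 lower with wheels. The part of these markers in the sex differences was not tested.

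Across the day 7 of 10 members had a 24 h rhythm in wild-type mice, where 41.4% of all 17193 genes did. The fitted peak-to-trough differences were 0.41 on the log2 scale for Pcsk1 (95% interval 0.29 to 0.52), 0.34 for Vgf (0.25 to 0.43), 0.22 for Pcsk2 (0.15 to 0.30), 0.19 for Scg2 (0.10 to 0.26), 0.14 for Scg5 (0.08 to 0.20), 0.09 for Cpe (0.04 to 0.13) and 0.08 for Pam (0.04 to 0.13). The median over all genes was 0.14, so Cpe and Pam lay below it. Pcsk1n (0.04), Chga (0.06) and Chgb (0.08) were not called, with adjusted p of 0.419, 0.203 and 0.303. Intervals were obtained with limma-voom.

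Pcsk1 was higher in the dark. It averaged 50.2 ± 4.94 CPM (SD, n = 12) at ZT6, 51.1 ± 4.52 at ZT9 and 50.2 ± 5.48 at ZT12, and 65.9 ± 8.31 at ZT15, 68.8 ± 6.83 (n = 10) at ZT18 and 63.96 ± 10.01 (n = 10) at ZT21. At ZT18 the lowest mouse had 59.3 CPM and at ZT12 the highest had 56.6, so these times did not overlap. The fitted peak was at ZT18.9, with a 95% half-width of 1.027 h. The course was not a plain sine wave, since ZT3 stood at 58.8 ± 11.3 between lower values at ZT0 (52.7 ± 5.29) and ZT6, and a 12 h component was called as well (0.23, adjusted p = 0.0199, 1 of 10 beside 1.91% of all genes).

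Vgf had a similar course. It averaged 165 ± 16.9 CPM at ZT12, 198 ± 27.01 at ZT15, 214 ± 23.2 (n = 10) at ZT18 and 199 ± 17.1 at ZT0, with a fitted peak at ZT20.2 (half-width 0.97 h). Single mice overlapped, from 135 to 196 at ZT12 and from 180 to 249 at ZT18. Its 12 h component was not called (0.08, adjusted p = 0.638).

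Pcsk2 peaked at the change from light to dark. It averaged 366 ± 49.5 CPM at ZT3, 438 ± 33.1 at ZT9, 442 ± 36.3 at ZT12 and 398 ± 23.3 (n = 10) at ZT18, with the fitted peak at ZT11.8 (half-width 1.34 h). The mice at ZT3 (282 to 443) and ZT12 (390 to 487) overlapped in part. Scg5, whose product assists that of Pcsk2, had its fitted peak at ZT13.3 (half-width 1.72 h), and averaged 109 ± 10.2 CPM at ZT3 and 126 ± 8.84 at ZT15.

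Scg2 was near its lowest when Pcsk2 was high. It averaged 126 ± 10.3 CPM at ZT15 and 148 ± 17.9 (n = 10) at ZT21, and its fitted peak was at ZT0.33 (half-width 1.68 h). Cpe averaged 1349 ± 124 CPM at ZT3 and 1268 ± 46.8 at ZT12, with its fitted peak at ZT1.59. Its rhythm was not called with time as a factor (adjusted p = 0.0518) or without replicate 6 (adjusted p = 0.0678). Pam averaged 198 ± 9.16 CPM at ZT12 and 213 ± 9.28 (n = 10) at ZT21, and was not called with the length slope as a covariate (adjusted p = 0.178). For the other 5 rhythmic members the call held under all 14 alternatives, with peak-to-trough values of 0.36 to 0.46 for Pcsk1 and 0.28 to 0.38 for Vgf.

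**Figure D5:**
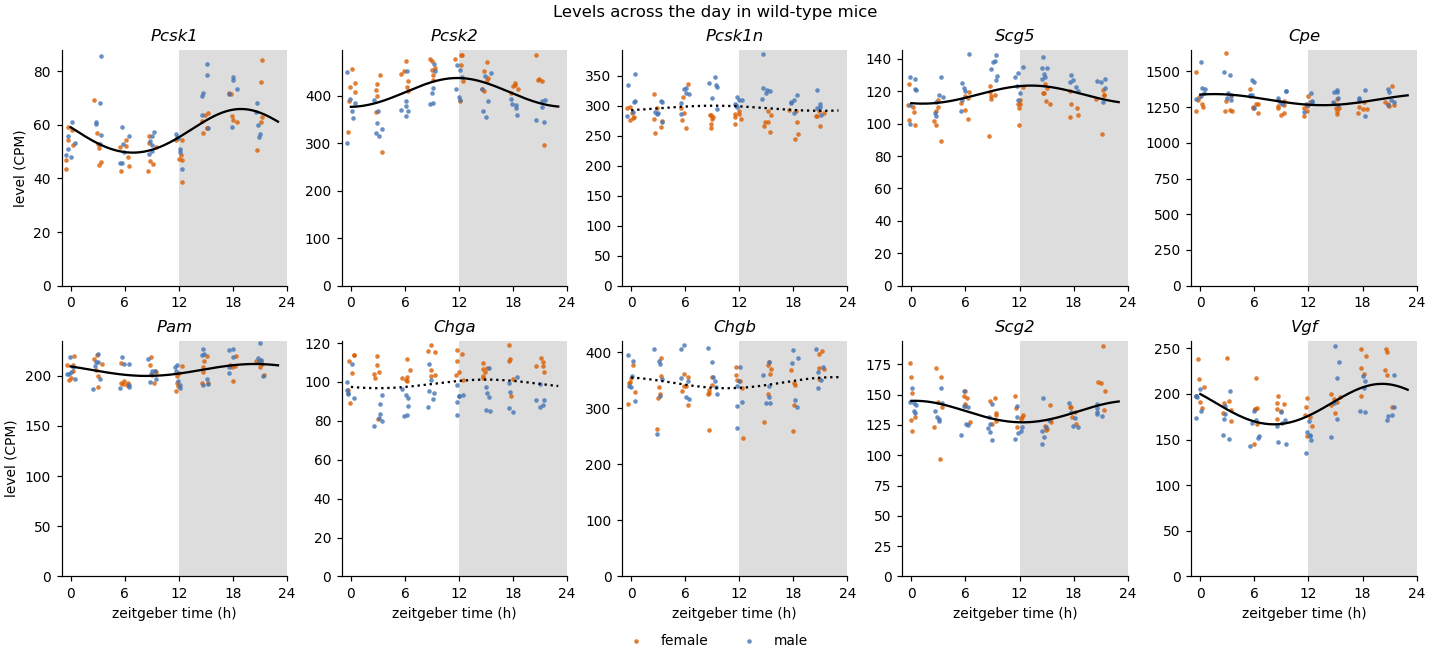
CPM of each gene in the 92 atlas libraries against zeitgeber time, females in orange and males in blue, with the dark phase shaded and the fitted 24 h curve (solid where called, dotted where not). Pcsk1 and Vgf are highest in the dark, peaking at ZT18.9 and ZT20.2, while Pcsk2 peaks at ZT11.8.

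The rhythms did not differ detectably between the sexes. The test of a sex difference in rhythm called 0 of 10 members in edgeR, DESeq2 and limma-voom (0.0756% of all genes), with 1 at an unadjusted p under 0.05 in edgeR, Pcsk1n (adjusted p = 0.525). Fitted alone, females gave 3 rhythmic members (Pcsk1, Pcsk2 and Vgf; 19.2% of genes) and males 6 (those with Scg2, Scg5 and Cpe; 25.9%). Pcsk1 had a peak-to-trough difference of 0.46 in females and 0.36 in males.

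The related gene groups are given beside the 41.4% of all genes that were rhythmic. Immediate early genes were rhythmic in 18 of 20 cases (Egr1 1.12, Egr3 0.61, Homer1 0.62), and their sum had medians of 903 CPM at ZT6 (820 to 1482), 1641 at ZT18 (1172 to 2323) and 1738 at ZT0 (1156 to 2067). Of 19 other processing enzymes tested 12 were rhythmic, with Pcsk4 at 0.92, Cpm at 0.38 and the aminopeptidase gene Rnpep at 0.29. Of 23 dense-core vesicle genes 13 were, among them Bdnf (0.44) and Syt4 (0.21), and of 21 neuropeptide precursors 3 were, Nts (1.32), Trh (1.10) and Npy (0.17). Of 12 regulators 8 were, including Creb1 (0.12), Neurod1 (0.29) and Nhlh2 (2.23). Nhlh2 is known to regulate Pcsk1, but its part in the Pcsk1 rhythm was not tested. Among cell-type markers, 7 of 10 excitatory, 2 of 8 inhibitory, 5 of 6 astrocyte, 5 of 6 oligodendrocyte, 5 of 6 microglial, 5 of 5 endothelial, 3 of 6 choroid plexus, 0 of 5 blood and 0 of 8 striatal genes were rhythmic. The part of the immediate early genes and of cell-type markers in the members' rhythms was not tested.

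In the atlas, from home-cage mice, 8 of 10 members also differed by sex. Males were higher in Scg5 (0.16), Pcsk1n (0.15), Pcsk1 (0.11) and Cpe (0.06) and lower in Chga (-0.21), Pcsk2 (-0.14), Vgf (-0.14) and Scg2 (-0.08), where 41.1% of all genes were called. Pcsk1n ran from 273 to 386 CPM in males (median 309, n = 46) and from 245 to 335 in females (282, n = 46), and Chga from 77.3 to 109 (92.5) and from 80.8 to 119 (106). Both pairs overlapped. At ZT6 the corresponding differences were 0.77 for Pcsk1n, -0.11 for Chga and -0.12 for Pcsk1, and the tables were not tested against each other. The Pcsk1 call was lost without replicate 1, 4, 5 or 6 (0.079 to 0.11, adjusted p up to 0.138) and with no expression filter (adjusted p = 0.0623), and that of Scg2 without replicate 4 (adjusted p = 0.0585). The length slope was alike in the sexes (medians 0.0022 in females and -0.0024 in males), while striatal markers were lower in males in 8 of 8 cases, blood markers were higher in 5 of 5, and the striatal markers summed to 486 CPM in females (124 to 1239) and 144 in males (100 to 428), and their part was not tested.

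Within groups, many pairs of members were correlated from mouse to mouse. Of the 45 pairs, 32 passed at ZT6 (25 positively and 7 negatively) and 27 in the atlas (25 and 2) after group means were removed. The test was a permutation test with Benjamini-Hochberg adjustment over the 45 pairs. It did not allow for the removed group means, so its p values are somewhat too small and pairs near the threshold may be overcalled. The share among pairs of all genes was not computed, so these counts cannot be called particular to the members. The median Pearson r over all pairs was 0.26 and 0.25, and all pairs share the library's depth and composition. Pcsk1 and Vgf gave the highest r in the atlas, 0.71 (Spearman's rho 0.70, permutation p = 1e-05 for both, the smallest that the permutations can give, adjusted p = 4.5e-05 and 9e-05, n = 92), and 0.68 without the 2 libraries farthest from the Pcsk1 median. At ZT6 that pair had r = 0.29 (rho 0.46), with 0.43 with wheels and 0.16 in calorimetry, where r was 0.47 without the 2 farthest libraries and so rested on them.

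Pcsk1 and Chgb had r = 0.51 at ZT6 (rho 0.55, permutation p = 1e-05 for both, adjusted p = 3.75e-05 for both, n = 126; 0.51 without the 2 farthest libraries), 0.54 in calorimetry, 0.49 with wheels and 0.37 in the atlas. Pcsk2 and Chga had 0.60 at ZT6 (rho 0.55; 0.56 without the 2 farthest), 0.68 and 0.39 in the sets and 0.58 in the atlas. Pcsk2 and its chaperone gene Scg5 had 0.68 in the atlas (rho 0.64; 0.62 without the 2 farthest), but 0.14 at ZT6 (permutation p = 0.122, adjusted p = 0.149). Pcsk1 and the gene of its inhibitor, Pcsk1n, had -0.38 at ZT6 (rho -0.31), with -0.64 in calorimetry, -0.15 with wheels (permutation p = 0.225, adjusted p = 0.349) and 0.04 in the atlas (permutation p = 0.735, adjusted p = 0.903). The relation passed the test in calorimetry and not in the other two, and the difference between them was not tested.

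The genes most like each member in the atlas, by Pearson r of the same residuals among 17127 genes, are given as a description, since all share depth and composition within a library (n = 92 and 126). Etv5 was most like Pcsk1 (0.81 in the atlas and 0.64 at ZT6), Clstn3 like Vgf (0.79 and 0.72), Eif5b like Chgb (0.80 and 0.83, first in rank at ZT6 as well) and Kcnq5 like Pcsk2 (0.91 and 0.72). Scg5 was most like Camk2g (0.84 and 0.37), Chga like Tuba4a (0.72 and 0.80), Pam like Ptprn2 (0.74 and 0.66), Scg2 like Tomm70a (0.67 and 0.50) and Pcsk1n like Cox4i1 (0.72 and 0.41). For Cpe the closest gene was Slc1a3, an astrocyte glutamate transporter (0.79 and 0.79, first in rank in both), and its second, Rab3c, was not alike at ZT6 (0.77 and -0.13).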

How the data were processed

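Raw integer counts of reads per gene were deposited by the authors, in 1 table for ZT6 and 1 for the atlas. Of the authors' pipeline, the submitters' processing notes name Trim Galore and STAR, then SAMtools and limma, with mm10 as the build, and no versions. The counting tool and its strand setting are not given. Symbols and coordinates came from GENCODE mouse release M21 (55227 of 55487 identifiers found), and promoter stretches from RefSeq.

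Each table was analysed alone in R 4.3.3 with edgeR 4.0.16: filterByExpr, TMM, robust quasi-likelihood fits with 1 mean per group (atlas: sex and 24 h cosine and sine), and Benjamini-Hochberg adjustment over all genes with a threshold of 0.05. Contrasts averaged the other factors. Fold changes are log2 differences ± SE. DESeq2 1.42.0, limma 3.58.1 (voom), RLE scaling, no filter, a length-slope covariate, a replicate block and left-out libraries were alternatives. The sex contrasts within sets and their interaction, the set contrasts within light cycles, the rhythm in each sex alone and the 12 h component were added after seeing the data. Calls were tested on simulated data. The written design counted 1 ZT6 library more: that sample (WT/TG male, running wheel, 12:12) had no column and was not analysed here.

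Members and gene lists were chosen with earlier results of these data known. All 10 members are reported. Of each other list, counts and up to 3 genes by smallest p are given, and for each member the most similar genes. No pair of libraries was identical, the lowest chi-square per gene being 3.20 at ZT6 and 2.95 in the atlas. That separate mice stand behind the replicates is given by the labels ("biol rep"). In the median, same-numbered libraries did not deviate together (r of 0.0043 over 1922 pairs at ZT6 and 0.0012 over 666 in the atlas). Of these pairs 6.61% at ZT6 and 17.9% in the atlas had an r over 0.1, and the lowest r were -0.247 and -0.302. The numbers were not treated as pairs.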

Additional observations from a re-analysis of the deposited data

Results flagged for a closer look

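Within groups of 4 to 6 mice, 23 of 320 sets of values held 1 library whose gap to the nearest other exceeded the 95% Dixon limit, and chance gives about 5%. At ZT6 only the WT/WT and HET/WT groups were examined. Pcsk1n reached 492 CPM in running wheel male 12:12 HET/WT replicate 3, where the others had 253 to 290. Chga was 50.3 CPM in calorimetry male 12:12 WT/WT replicate 1 (others 85.6 to 86.6) and 65.3 in calorimetry male 11:11 HET/WT replicate 1 (others 73.8 to 74.9). Pcsk1 was 61.7 in calorimetry male 12:12 WT/WT replicate 4 (others 44.5 to 47.2).

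In calorimetry females on 11:11, Pcsk2 was 442 CPM in HET/WT replicate 3 and 574 in WT/WT replicate 1, and Pcsk1n was 243 in WT/WT replicate 2. Cpe was 1358 CPM in calorimetry female 12:12 HET/WT replicate 3 and 1296 in running wheel male 12:12 WT/WT replicate 3, both below the rest of their group.

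In the atlas females, Cpe was high at 1498 CPM (ZT0, replicate 6), 1628 (ZT3, replicate 5) and 1398 (ZT21, replicate 4), and in males at 1565 (ZT0, replicate 1). Female replicate 4 at ZT21 was also low in Scg5 (93.4), and female replicate 5 at ZT3 low in Chga (80.8). Female replicate 4 at ZT9 was low in both Scg5 (92.5) and Chgb (261). Chgb was 248 in female ZT12 replicate 2, Pam 213 in female ZT6 replicate 2, and Vgf 239 in female ZT3 replicate 3 and 220 in male ZT21 replicate 3. Pcsk2 was 453 in male ZT6 replicate 4 and Pcsk1n 386 in male ZT15 replicate 3.

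Effects that differed between groups, each by a test of the difference itself, were the sex difference between sets for Chgb (-0.86, adjusted p = 3.25e-15), Vgf (-0.43), Scg2 (-0.43), Pcsk1 (-0.38), Scg5 (0.27), Chga (-0.17), Cpe (0.11) and Pam (-0.085, adjusted p = 0.0463). The light cycle effect differed between sets for Pcsk1 (0.28, adjusted p = 0.0301) and between sexes for Pcsk2 (-0.19) and Chga (-0.19).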

How the results depend on the processing

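Across the alternatives 2256 member values kept their call, 74 lost it, 25 gained it, 57 called in neither fit moved by over 1 SE, and 8 turned direction. The cause was not tested in any case. With the length slope as a covariate the number of members called fell to 1 for the light cycle, 1 for the light cycle in calorimetry, 4 for the set, 1 for sex at ZT6, 1 for sex in calorimetry and 3 for sex with wheels. All 8 turned values came from this covariate: Pam (0.081), Pcsk1n (-0.026) and Pcsk1 (0.18) by set, Chgb (0.045) and Pcsk1 (0.34) by sex, Pam (0.082) and Pcsk1 (0.28) by sex in calorimetry, and Pcsk1n (-0.26) in the interaction of sex with set. The slopes of the sexes did not overlap within either set, nor those of males between the sets, so these values rest on extrapolation. With no expression filter the counts were 1 for WT/TG against WT/WT (Chgb), 4 for the light cycle, 5 in calorimetry, 1 with wheels, 1 for the interaction of HET/WT with set, 2 for light cycle with set and 4 for light cycle with sex. Without the 5 libraries lowest in protein-coding share the last counts were 2 and 4. Leaving out each replicate number in turn gave 1 to 1 for the light cycle, 2 to 4 in calorimetry, 6 to 9 for sex at ZT6, 5 to 8 for sex with set (5 without replicate 3), 0 to 1 for light cycle with set, 0 to 1 for light cycle with sex, 0 to 1 for HET/WT in single combinations, and 3 to 3 for the light cycle in each set and sex (5 with all). A replicate block changed no count of members called: Chgb by light cycle was 0.19 and Pcsk1 in calorimetry 0.25 with it. The shared numbers were not treated as pairs. Over all genes the counts ranged, across alternatives, from 4 to 107 for HET/WT, 2 to 76 for WT/TG, 6 to 84 for HET/TG, 960 to 2642 for the light cycle, 1766 to 4112 in calorimetry, 0 to 208 with wheels, 4221 to 12136 for the set and 1698 to 11382 for sex at ZT6. Genotype effects under the widths of the intervals given were not detectable with these numbers of mice.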
